A study of Mus musculus with 11 samples.

Results

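The 8 genes described here encode the receptors that mark mitochondria for removal by autophagy (Bnip3, Bnip3l, Fundc1, Fkbp8, Bcl2l13 and Phb2) and 2 kinases of the same process (Pink1 and Tbk1). They were chosen by name. All 8 were found among the 56748 Ensembl genes of the count table, and all 8 passed the filter on low counts that left 17987 genes to test. RNA-seq libraries came from liver CD4 T cells of mice that had received carbon tetrachloride (CCl4), a liver toxin that leads to fibrosis, for 5 weeks. In 6 libraries the T lymphocytes lacked Atg5 (labelled ATG5TLymph-/-, here Atg5-deficient), and in 5 they carried the floxed gene undeleted (ATG5fl/fl, labelled wildtype, here wild-type). Both groups received CCl4, so there is no uninjured liver to compare with. The labels name neither the driver of the deletion nor the strain, sex and age of the mice. The series describes cells sorted by flow cytometry, whereas the protocol of each sample describes sections of paraffin blocks. Whether libraries came from separate mice is not stated either, so p-values measure the spread between these samples, which may be technical.

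Mitophagy is the selective removal of mitochondria by autophagosomes. In one branch, the kinase PINK1 builds up on damaged mitochondria, phosphorylates ubiquitin and so starts the tagging of the organelle. TBK1 then phosphorylates the adaptors, such as optineurin, that tie ubiquitin to the autophagosome. In the other branch, receptors that sit in the outer mitochondrial membrane bind LC3 family proteins directly through a short motif, without ubiquitin. Both branches end in an autophagosome, which needs the ATG12-ATG5 conjugate to form efficiently. In T cells, mitophagy is known as one of the processes that adjust mitochondrial content after activation.

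Libraries held 30699408 to 47564440 counted reads. Summed markers of CD4 T cells came to 3892 to 5386 CPM (counts scaled to a library of 1e6 reads) and those of hepatocytes to 47.2 to 1127 CPM. Red cell markers, which matter here because Bnip3l clears mitochondria from maturing red cells, summed to 2.69 to 14.8 CPM, and macrophage markers to 5.29 to 18.9 CPM. Sums were 151 to 281 CPM for B cells (mostly Ighm), 4.10 to 6.55 for CD8 T cells, 42.4 to 224 for NK cells, 0.0551 to 0.685 for neutrophils, 120 to 223 for endothelium (mostly Pecam1), 1.82 to 6.52 for stellate cells and fibroblasts, and 2.58 to 9.94 for platelets. Gp9 of the platelet list and Retnlg of the neutrophil list were at 0 in every library. No sum differed between genotypes past the threshold (adjusted p from 0.206 to 0.866 over 11 lists, exact permutation over all 462 splits, two-sided). The lowest unadjusted value was that of the neutrophil sum (exact permutation p = 0.0195), with at most 0.685 CPM in a library. NK cell markers summed to a mean of 101 ± 64.7 CPM with Atg5 deficiency, beside 50.6 ± 4.47 CPM for the wild type (exact permutation p = 0.0563). In that sum, 5 of 6 Atg5-deficient libraries were above every wild-type one. The highest values in a library were 106 CPM for Nkg7, 84.7 for Eomes, 46.0 for Gzma, 28.4 for Prf1 and 7.90 for Klrb1c. Klre1, Ncr1 and Klra8 reached only 1.54, 0.289 and 0.165 CPM. CD4 T cell markers averaged 4751 ± 517 and 4194 ± 201 CPM (exact permutation p = 0.0541), and hepatocyte markers 585 ± 480 and 315 ± 250.3 CPM (exact permutation p = 0.275). Whether the NK cell sum came from NK cells was not tested. The part of NK cell or neutrophil RNA in the changes given below was not tested either. Atg5 itself ranged from 15.2 to 22.5 CPM in Atg5-deficient and from 13.4 to 21.1 CPM in wild-type libraries (log2 fold change 0.18, edgeR, adjusted p = 0.488). Its count was given for the gene as a whole and not by exon, so it does not check the genotype labels.

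None of the 8 genes differed between genotypes past the threshold. With edgeR's quasi-likelihood test and Benjamini-Hochberg adjustment over all genes, 0 of 8 passed, where 6.84% of all 17987 tested genes did (4.43% higher and 2.41% lower in Atg5-deficient libraries). At an unadjusted p under 0.05 there were also 0 of 8, against 23.4% of all genes. DESeq2 called 0 of 8 (13.2% of all genes) and limma-voom with quality weights called 0 of 8 (19% of all genes), with 1 of 8 at an unadjusted p under 0.05 in limma-voom and 0 in DESeq2. The log2 fold changes of the 8 genes ran from -0.09 (Phb2) to 0.50 (Bnip3). Of these, 7 were positive, and the median was 0.08, beside -0.0027 over all genes tested. Adjusted p-values ran from 0.358 to 0.887. The groups overlapped in every one of the 8 genes. They did not overlap in 4.86% of all tested genes (2.78% with Atg5-deficient higher, 2.08% lower), a share so small that overlap in all 8 does not set these genes apart. A p above the threshold does not show that levels are equal, so the 95% interval of each fold is given below. These are levels in bulk RNA, in which fewer expressing cells and less RNA per cell cannot be told apart.

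**Figure D1:**
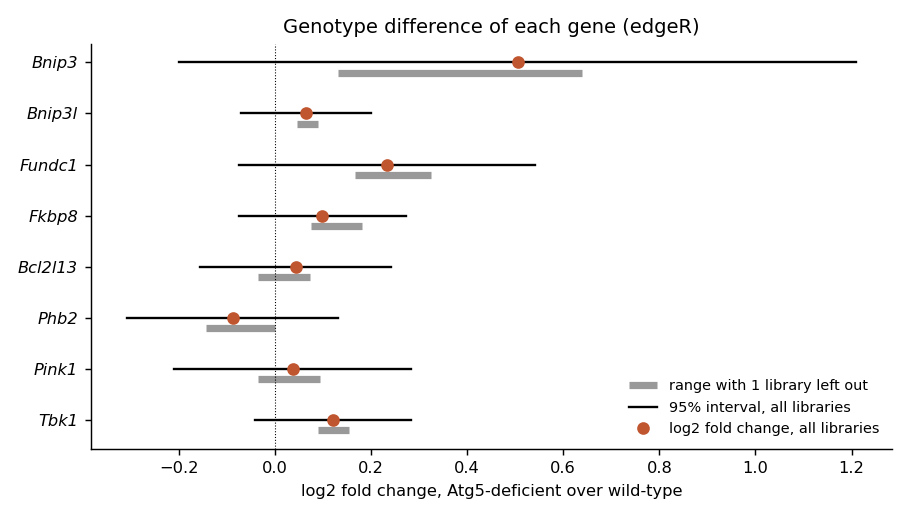
Log2 fold change of each of the 8 genes, Atg5-deficient over wild-type (horizontal axis), with the 95% interval of the edgeR fit (black line) and the range of the estimate when each of the 11 libraries was left out in turn (grey bar). Every interval includes 0, and that of Bnip3 is the widest, from -0.20 to 1.21.

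Levels between genes were compared as CPM per kilobase of annotated exon. Pink1 had the highest, 33.4 CPM per kilobase averaged over the 11 libraries, above Fkbp8 in 11 of 11. Fkbp8 (25.15) and Bnip3l (24.3) could not be ordered, since Fkbp8 was the higher in 7 of 11 libraries. Bnip3l stood above Phb2 (20.5) in 10 of 11, and Phb2 above Tbk1 (18.1) in 7 of 11, which leaves those neighbours within their spread. A wide gap followed, with Tbk1 above Fundc1 (5.38) in all 11 libraries by a ratio of 3.37. Fundc1 and Bcl2l13 (4.96) overlapped, with Fundc1 higher in 9 of 11. Bnip3 was lowest in all 11, at 1.66 CPM per kilobase. Among all tested genes with an annotated length, the level of Pink1 lay at percentile 93.2 and that of Bnip3 at 37.4. Lengths are those of the union of all annotated exons, and that of Bcl2l13, 9089 bases, is the longest of the 8, which lowers its level on this scale. The order depends on these lengths, 4529 bases for Fkbp8 and 2673 for Pink1. In CPM, not divided by length, Fkbp8 averaged 117 in Atg5-deficient and 109.7 in wild-type libraries. Bnip3l averaged 95.8 and 91.6 CPM, and Pink1, below both, 90.3 and 88.0 CPM.

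**Figure D2:**
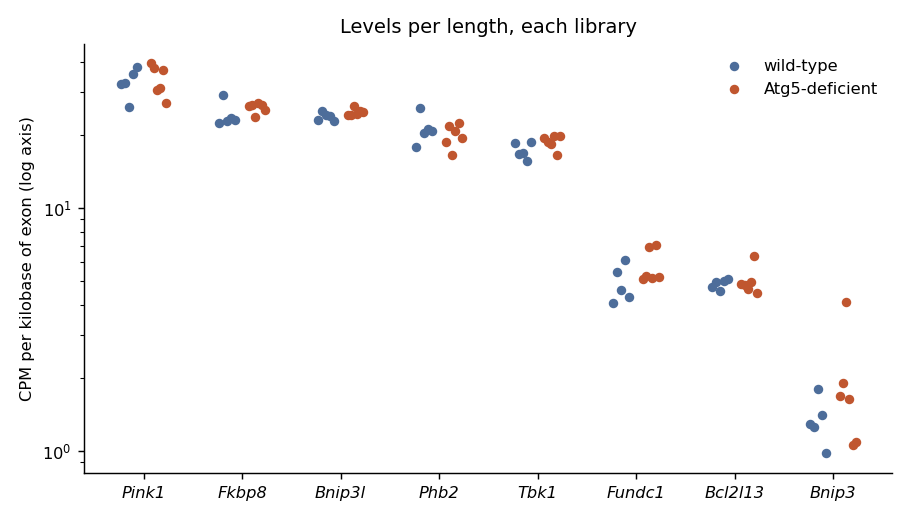
CPM per kilobase of exon (log axis) of the 8 genes in each wild-type (blue) and Atg5-deficient (orange) library, ordered by the mean over libraries. Pink1 is highest and Bnip3 lowest, and the colours mix in every gene.

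The paralogous receptors Bnip3 and Bnip3l differed far more from each other than either did between genotypes. BNIP3L (also called NIX) and BNIP3 are related proteins with a single membrane anchor and an LC3-binding motif near the amino end. BNIP3 is a classic product of a hypoxia-induced gene, and BNIP3L removes mitochondria from reticulocytes. Per length, Bnip3l exceeded Bnip3 by a ratio of 13.4 to 23.2 in the wild-type and 6.43 to 23.8 in the Atg5-deficient libraries. The low end, 6.43, belongs to Atg5-deficient replicate 3, where Bnip3 was high.

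Bnip3l (ENSMUSG00000022051, chromosome 14, 66985239 to 67008877, minus strand, GRCm38) was the steadiest of the 8. The wild-type libraries stood at 88.7, 96.5, 93.0, 92.0 and 87.8 CPM. The Atg5-deficient ones ran from 93.2 through a median of 94.7 to 102 CPM. Most Atg5-deficient libraries lay inside the upper part of the wild-type range, with 2 of 6 above it. Means were 95.8 ± 3.36 CPM (SD, n = 6) and 91.6 ± 3.53 CPM (SD, n = 5), a coefficient of variation of 3.50% and 3.86%. The fold was 1.05 (95% interval 0.953 to 1.15, log2 fold change 0.06, SE 0.06, adjusted p = 0.583). At this precision a change beyond 1.15-fold up or 0.953-fold down lies outside the interval. The part of red cell RNA in these values was not tested.

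Bnip3 (ENSMUSG00000078566, chromosome 7, 138890836 to 138909519, minus strand) was scarce, with 87 to 296 reads in a library. The wild-type libraries had 2.93, 2.84, 4.07, 3.19 and 2.22 CPM. The Atg5-deficient libraries had 3.83, 4.32, 9.31, 3.71, 2.39 and 2.47 CPM in the order of their replicate numbers. Replicate 3, at 9.31 CPM, stood 2.78 times above the mean of the other 5 (3.34 ± 0.865 CPM, SD, n = 5), which lay close to the wild-type mean of 3.05 ± 0.675 CPM (SD, n = 5). With all libraries the mean was 4.34 ± 2.56 CPM (SD, n = 6) and the fold 1.42 (95% interval 0.871 to 2.31, log2 fold change 0.50, SE 0.33, adjusted p = 0.387). Without Atg5-deficient replicate 3 the log2 fold change was 0.13 (adjusted p = 0.762). That library also had hepatocyte markers at 841 CPM, within the group's range of 63.9 to 1127 CPM, and red cell markers at 12.9 CPM, the highest of the group. Its macrophage (18.9 CPM) and platelet (9.94 CPM) sums were the highest of all 11 libraries. Each of these sums rested largely on 1 gene. Over all libraries Cd68 of the macrophage list reached 15.96 CPM, and the next highest, Csf1r, 1.56 CPM. Itga2b of the platelet list reached 9.48 CPM, and the next highest, Gp1bb, 0.849 CPM. Its CD4 T cell sum (3942 CPM) was the lowest of the group, and its B cell sum (151 CPM) the lowest of all 11. With hepatocyte markers as a covariate over all libraries, the log2 fold change of Bnip3 was 0.32 (adjusted p = 0.587). The part of the red cell, macrophage and platelet markers in its level was not tested. An antisense gene, Gm45507, shares 504 exonic bases with Bnip3 but had 2.51% of its count.

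Because Bnip3 is known as a target of hypoxia-inducible factors, the letters upstream of its start were set beside those of Pink1. Of the 8 genes, Pink1 had the highest level per length. RefSeq upstream sequences (GRCm38.p6) matched 7 of the 8 genes. The 250 bases before each start were searched on both strands for ACGTG and GCGTG, the core letters of the hypoxia response element, and for the E-box CACGTG, which contains ACGTG. Bases inside annotated exons are left out of the print, and capitals mark the matches, also where they lie on the other strand.
Bnip3, chr7:138909520-138909756, minus strand: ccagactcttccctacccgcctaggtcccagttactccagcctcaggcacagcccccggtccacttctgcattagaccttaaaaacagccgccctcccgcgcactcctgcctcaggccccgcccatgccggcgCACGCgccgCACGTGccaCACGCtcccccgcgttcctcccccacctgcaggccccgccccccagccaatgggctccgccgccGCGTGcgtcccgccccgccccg
Pink1, chr4:138326308-138326546, minus strand: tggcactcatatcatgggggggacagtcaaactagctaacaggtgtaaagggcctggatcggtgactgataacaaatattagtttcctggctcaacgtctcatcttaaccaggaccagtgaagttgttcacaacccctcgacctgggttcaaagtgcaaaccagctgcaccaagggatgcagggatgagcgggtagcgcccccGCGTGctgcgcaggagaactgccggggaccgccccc
Bnip3 held 1 CACGTG, which counts as ACGTG on each strand, and 3 GCGTG, all in a stretch with a G and C share of 72.4%. Pink1 held 1 GCGTG and no ACGTG. Among the other 5 genes with a sequence, Tbk1 held 3 GCGTG, Fkbp8 1 of each core, Bcl2l13 1 GCGTG, Phb2 1 ACGTG and Fundc1 none. Of all 32851 upstream windows of this length, 38.6% held at least 1 of the core letters and 6.02% held CACGTG. A match describes letters and is not a measured binding site.

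Fundc1 (ENSMUSG00000025040, chromosome X, 17556564 to 17572325, minus strand) encodes an outer membrane receptor that is active under low oxygen. It ranged from 11.98 to 16.6 CPM in Atg5-deficient and from 9.59 to 14.3 CPM in wild-type libraries. Replicates 3 and 5 of the Atg5-deficient group, at 16.2 and 16.6 CPM, were above every wild-type library, and the other 4 lay within the wild-type range. The fold was 1.18 (95% interval 0.949 to 1.46, log2 fold change 0.23, SE 0.14, adjusted p = 0.358). This was the second-largest fold of the 8 after Bnip3. Leaving out single libraries moved the log2 value between 0.17 and 0.32, without a call.

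Fkbp8 (ENSMUSG00000019428, chromosome 8, 70527724 to 70535328, plus strand) encodes an immunophilin of the outer membrane that binds LC3 and also holds BCL2 at mitochondria. The wild-type libraries had 102, 133, 103, 106.5 and 104 CPM. The Atg5-deficient libraries ran from 107 through a median of 119.7 to 122 CPM. All 6 Atg5-deficient libraries thus stood above 4 of the 5 wild-type libraries and below wild-type replicate 2. Without that replicate the wild-type mean was 104 ± 1.95 CPM (SD, n = 4) in place of 109.7 ± 13.0 CPM (SD, n = 5), beside 117 ± 5.50 CPM (SD, n = 6) in Atg5-deficient libraries. The fold was 1.07 (95% interval 0.949 to 1.21, log2 fold change 0.10, SE 0.08, adjusted p = 0.509), and without wild-type replicate 2 the log2 fold change was 0.18 (adjusted p = 0.123). Fkbp8 shares 224 exonic bases with Kxd1 on the other strand, whose total count was 487% of that of Fkbp8. Without the strand setting, reads on those bases cannot be told apart.

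Bcl2l13 (ENSMUSG00000009112, chromosome 6, 120836212 to 120892842, plus strand) encodes a BCL2-like outer membrane protein regarded as the mammalian counterpart of the yeast receptor Atg32. Wild-type libraries kept within 41.4 to 46.5 CPM and 5 of the 6 Atg5-deficient libraries within 40.8 to 45.2 CPM. Atg5-deficient replicate 5 stood at 57.8 CPM, 1.34 times the mean of the other 5. The fold was 1.03 (95% interval 0.898 to 1.18, adjusted p = 0.825). Bcl2l13 and Bid, on opposite strands, share 628 exonic bases at their ends, and Bid had 27.8% of the Bcl2l13 count.

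Phb2 (ENSMUSG00000004264, chromosome 6, 124712336 to 124716950, plus strand) encodes prohibitin 2, a scaffold of the inner membrane that becomes exposed as a receptor when the outer membrane ruptures. It was the only gene of the 8 with a negative log2 fold change. Values ran from 61.5 to 83.3 CPM in Atg5-deficient and from 66.0 to 96.2 CPM in wild-type libraries. The top value was wild-type replicate 2 and the bottom one Atg5-deficient replicate 3, and the rest mixed. The fold was 0.941 (95% interval 0.808 to 1.10, log2 fold change -0.09, SE 0.10, adjusted p = 0.655). Its value rested on wild-type replicate 2 and was -0.00056 when that library was omitted. Its partner Phb, which forms rings with it, had a log2 fold change of 0.03 (adjusted p = 0.878). A small nucleolar RNA, Gm23547, lies on the same strand with 155 shared exonic bases and had 11.7% of the Phb2 count (log2 fold change -0.55, adjusted p = 0.0590).

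Pink1 (ENSMUSG00000028756, chromosome 4, 138313409 to 138326307, minus strand), the kinase that starts the ubiquitin branch, varied between libraries without following genotype. Wild-type libraries had 86.8, 87.7, 69.4, 94.8 and 101 CPM. Atg5-deficient libraries ran from 72.2 through a median of 91.1 to 105 CPM. Means were 90.3 ± 13.1 CPM (SD, n = 6) and 88.0 ± 11.97 CPM (SD, n = 5), so the spread within each group exceeded the difference between them. The fold was 1.03 (95% interval 0.865 to 1.22, log2 fold change 0.04, SE 0.12, adjusted p = 0.887). PINK1 protein is known to be controlled mainly by its import and cleavage, which these RNA levels do not measure.

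Tbk1 (ENSMUSG00000020115, chromosome 10, 121546455 to 121586787, minus strand), the kinase of cargo adaptors and of innate signalling, stood at 73.5 ± 4.77 CPM (SD, n = 6) against 67.6 ± 5.00 CPM (SD, n = 5). Of the 6 Atg5-deficient libraries, 4 lay above every wild-type library, the most among the 8 genes, while replicate 5 (65.0 CPM) fell among the lower wild-type values of 61.4, 65.4 and 65.8 CPM. The fold was 1.09 (95% interval 0.972 to 1.22, log2 fold change 0.12, SE 0.08, adjusted p = 0.365).

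**Figure D3:**
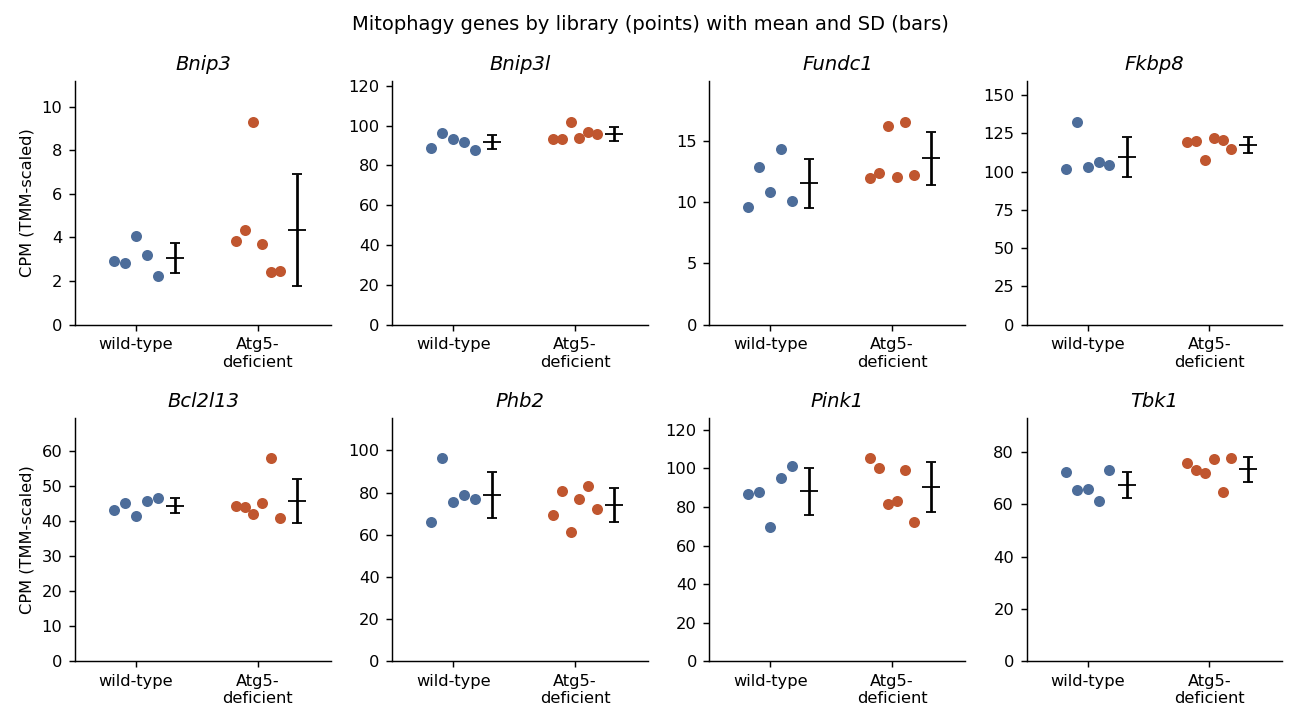
CPM (vertical axis, from 0) of the 8 genes in each library (points) with mean and SD (bars), wild-type in blue (n = 5) and Atg5-deficient in orange (n = 6). The groups overlap in all 8 panels. Single libraries stand apart for Bnip3 (9.31 CPM, Atg5-deficient), Fkbp8 (133 CPM, wild-type) and Bcl2l13 (57.8 CPM, Atg5-deficient).

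Lists of genes that act with the 8 are given beside the 6.84% of all tested genes that edgeR called. In a list of the PINK1 pathway (outer membrane import pores, VDAC channels, Miro proteins, mitofusins, deubiquitinases), 0 of 27 tested genes passed, with a median log2 fold change of 0.02. Trap1, a mitochondrial chaperone (-0.22, adjusted p = 0.122), and Vdac1, the most studied outer membrane channel (0.30, adjusted p = 0.170), came nearest. Usp30, a deubiquitinase of the outer membrane that opposes this branch, had 15.7 ± 1.33 against 16.6 ± 3.28 CPM (log2 fold change -0.08, adjusted p = 0.739). Of 16 regulators of the receptors and of prohibitin, 0 passed (median 0.03). Fbxl4, which keeps BNIP3 and BNIP3L protein low, had -0.28 (adjusted p = 0.544), and Ulk1, the kinase that starts autophagosomes, 0.32 (adjusted p = 0.0606). Of 13 fission and fusion genes, 0 passed (median 0.07). With the 8 genes, these lists held 61 different tested genes, of which 0 were called and 4 had an unadjusted p under 0.05 with edgeR, where 23.4% of all genes had one. For those 61, DESeq2 called 1 higher and none lower (13.2% of all genes in either direction), and limma-voom 5 higher and 2 lower (19% of all genes). With upper-quartile factors edgeR called 1 lower, where 685 of all 17987 genes were called lower.

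Partners and cargo adaptors of TBK1 held 2 called genes of 14, both higher, where 4.43% of all tested genes were called higher. Optn, which encodes the adaptor optineurin, stood at 9.98, 12.1, 13.8, 9.28, 10.04 and 5.44 CPM in Atg5-deficient and at 4.13, 3.97, 7.70, 3.22 and 1.83 CPM in wild-type libraries. Only Atg5-deficient replicate 6 fell below the top wild-type value, that of replicate 3. Its means were 10.1 ± 2.84 CPM (SD, n = 6) and 4.17 ± 2.17 CPM (SD, n = 5), a log2 fold change of 1.27 (SE 0.32, adjusted p = 0.0303). Tank, a scaffold that binds TBK1, had 75.2 ± 9.56 CPM in wild-type and 99.6 ± 14.6 CPM in Atg5-deficient libraries (0.41, SE 0.11, adjusted p = 0.0459). When each of the 11 libraries was omitted in turn, either gene kept its call 4 times, and Tank lost its call with upper-quartile factors (0.34, adjusted p = 0.0943). Sqstm1, Nbr1 and Tax1bp1, which encode other adaptors, did not pass, with log2 fold changes of 0.24 (adjusted p = 0.167), 0.05 and 0.0046. The median of the 14 was 0.21. With hepatocyte markers as a covariate, 1 of the 14 genes passed in place of 2, where 1369 of all 17987 genes did. DESeq2 called 2 higher (13.2% of all genes in either direction), and limma-voom called 5 higher and 2 lower (19% of all genes). Both tools called Optn and Tank.

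Genes of the hypoxia response, to which Bnip3 belongs, moved in both directions. Of 22 tested, 5 rose and 2 fell (4.43% and 2.41% of all tested genes), with a median of 0.34. Log2 fold changes were positive in 18 and negative in 4 of the 22. With edgeR, 13 of the 22 had an unadjusted p under 0.05, where 23.4% of all genes had one. Hif1a, the oxygen-regulated factor, had a mean of 347 ± 99.7 CPM in Atg5-deficient libraries, where wild-type ones had 204 ± 52.5 CPM (0.77 on the log2 scale, SE 0.21, adjusted p = 0.0470). Its groups overlapped, at 227 to 500.5 CPM and 152 to 280 CPM. The glycolytic enzyme gene Pgk1 (0.62), Ndrg1 (0.56), the endoplasmic reticulum oxidase gene Ero1l (0.45) and Ddit4, which encodes an inhibitor of mTORC1 (0.42), rose too. Pdk1, a kinase that restrains pyruvate entry into mitochondria, was lower in Atg5-deficient libraries, 75.1 ± 15.1 beside 121 ± 22.8 CPM (-0.69, SE 0.15, adjusted p = 0.0157). Pfkfb4, a regulator of glycolysis, was lower too, 3.96 ± 0.553 beside 6.56 ± 0.876 CPM (-0.73, SE 0.17, adjusted p = 0.0191). Its groups did not overlap, as in 2.08% of all tested genes with Atg5-deficient lower. With any 1 of the 11 libraries omitted both falls kept their call, while the rises kept theirs for only 2 (Hif1a, Pgk1, Ero1l) or 3 (Ndrg1, Ddit4) of the 11 omissions. With upper-quartile factors the 2 falls stayed and none of the rises passed, Hif1a having 0.70 (adjusted p = 0.0714). Those factors gave 584 higher and 685 lower of all 17987 genes. With hepatocyte markers as a covariate, 4 rises and 2 falls passed (813 and 556 of all genes). DESeq2 and limma-voom each called 9 higher and 2 lower (13.2% and 19% of all genes in either direction). All 5 rises were among them (Hif1a adjusted p = 0.0025 and 0.0127). Of the genes that did not pass with edgeR, Ldha (0.38, adjusted p = 0.0551), Egln3 (0.70, adjusted p = 0.0597) and Egln1 (0.35, adjusted p = 0.0618) came nearest. Slc2a1 (0.65), Ankrd37 (0.54) and Mxi1 (0.33) were positive too. Vegfa, P4ha1 and Kdm3a, also known hypoxia targets, had 0.02, 0.01 and -0.06. Atg5-deficient replicate 3, in which Bnip3 was highest, was also the highest library for 9 of the 22 genes, and for 15.3% of all tested genes. Reads of Pgk1 may also match its pseudogenes, and Hif1a shares 148 exonic bases with Gm49321, which had 5.08% of its count.

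Among 16 genes of mitochondrial biogenesis and DNA upkeep, 1 rose and 1 fell (median -0.07), where 6.84% of all tested genes were called. Tfe3, a factor that drives lysosomal genes, rose, with 38.5 ± 4.74 CPM beside 30.3 ± 2.01 CPM in wild-type (0.35, SE 0.10, adjusted p = 0.0433). Every Atg5-deficient library was above every wild-type one, as in 2.78% of all tested genes. Groups did not overlap either for Twnk (-0.41, adjusted p = 0.0514) and Polg (-0.17, adjusted p = 0.127), which were lower, as in 2.08% of all tested genes. Tfe3 kept its call for 2 of the 11 omissions and lost it with upper-quartile factors (0.28, adjusted p = 0.0774). Pprc1, a PGC-1 related coactivator, fell, with 57.6 ± 7.11 CPM beside 75.0 ± 7.57 CPM (-0.38, SE 0.10, adjusted p = 0.0324), a call kept for 4 omissions. With hepatocyte markers as a covariate, no gene of this list passed as higher and 2 passed as lower (813 and 556 of all 17987 genes). Upper-quartile factors gave 0 higher and 3 lower (584 and 685 of all genes). DESeq2 gave 1 higher and 2 lower (13.2% of all genes in either direction), and limma-voom 1 higher and 5 lower (19%). The exons of Pprc1 share 177 bases with Ldb1 on the other strand, which had 390% of the Pprc1 count. Those of Twnk share 507 bases with Mrpl43, also on the other strand, which had 159% of the Twnk count (log2 fold change 0.36). Those of Polg share 921 bases with Fanci on the other strand, which had 7.97% of the Polg count (log2 fold change -0.55). Ppargc1a, the best-known driver of mitochondrial biogenesis, had 0.451 against 0.365 CPM (adjusted p = 0.898), and Tfam, which packages mitochondrial DNA, had a log2 fold change of 0.06.

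**Figure D4:**
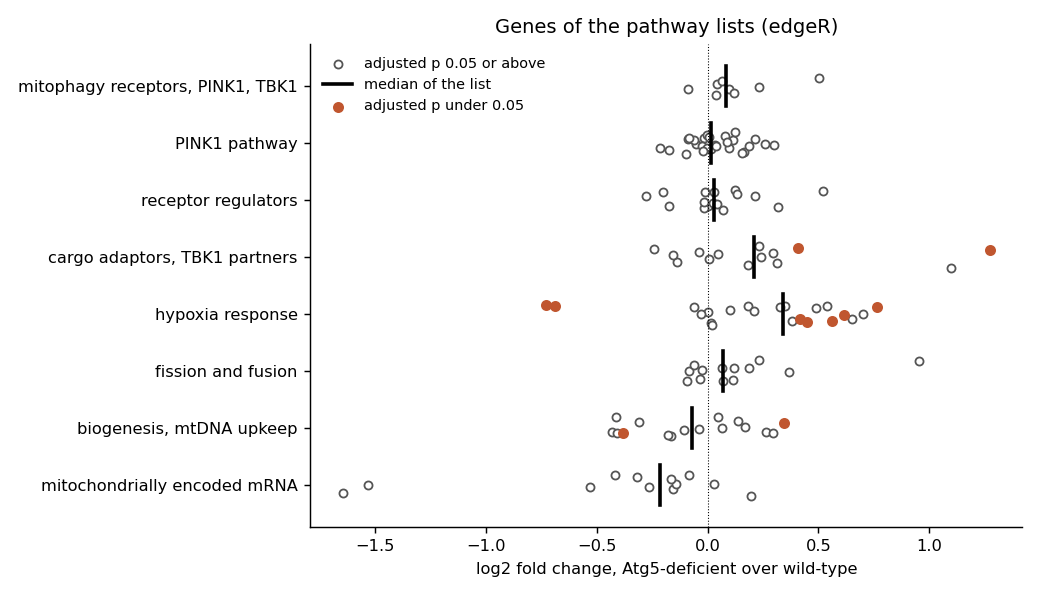
Log2 fold change (horizontal axis) of every tested gene in each list (points), with genes past the edgeR threshold filled and the list's median as a bar. The top 3 rows, the fission and fusion row and the row of mitochondrially encoded mRNA hold no filled point, and the hypoxia row holds 5 on the right and 2 on the left.

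Across the 11 libraries, the gene most like each of the 8 was found by Pearson's r of log2 CPM after removing each group's mean, as a description without a test. Tested genes without an annotated name, or with the name of a predicted gene, clone or pseudogene (-ps), were left out of this search. Picking the nearest of so many genes over 11 libraries favours high values. Phb2 was nearest to Alyref (r = 0.96), and r was 0.95 without the 2 libraries farthest from the median of Phb2. Fundc1 was nearest to Timm13, an inner membrane import gene (0.93, and 0.91 without the 2 farthest), and Bnip3 to Abcb1b (0.98, and 0.93). For Pink1 it was Tarbp2 (0.94, and 0.87), for Fkbp8 Ado (0.94, and 0.86) and for Tbk1 Klhl36 (0.95, and 0.84). Bcl2l13 and Xxylt1 (0.94, and 0.71), like Bnip3l and Qpctl (0.89, and 0.68), depended more on those libraries. None of these nearest genes was itself one of the 8.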

How the data were processed

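The authors deposited unnormalized counts for each Ensembl gene in each of 11 libraries (0 columns of other samples). The submitters' processing notes name STAR, featureCounts and GRCm38. Versions, strand setting, gene models and handling of multimapping reads are not stated there. IDs were matched to GENCODE M21 (GRCm38, 91.9% of IDs, 89.3% to 96.5% of a library's reads). Genotypes come from the labels; replicate numbers follow accession order and are names only. Low genes were removed with filterByExpr (minimum count 10, minimum total 15). Counts were scaled by TMM and tested with edgeR 4.0.16 (robust quasi-likelihood F test), with p-values adjusted after Benjamini-Hochberg over all tested genes at a threshold of 0.05. One result of a related gene is not reported here. R was 4.3.3, DESeq2 1.42.0 and limma 3.58.1. The 95% intervals use the fit's SE. CPM of genes are TMM-scaled, and summed markers use total counts. The test was checked on simulated counts.

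The 8 genes and the lists were chosen with earlier results of these data known, so no list is independent support. Named are the 8 genes, Atg5, Phb, Hif1a, Optn and Sqstm1, called genes of each of 7 pathway lists (at most 6) and the nearest genes. Others named did not pass and were picked for their known role, a small p, a low count or groups that did not overlap. Alternatives were other scalings, DESeq2, limma-voom, other filters, a hepatocyte marker covariate, omission of each library in turn, and a fit of the 8 libraries with adjoining title numbers. The 8 genes had 87 to 4885 reads per library, with the fewest for Bnip3. Counting error was not measured.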

Additional observations from a re-analysis of the deposited data

Results flagged for a closer look

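Of 16 groups (8 genes in each genotype), 3 held a library beyond the 95% critical value of Dixon's test, where chance gives about 1 in 20. Bnip3 stood at 9.31 CPM in Atg5-deficient replicate 3, and the next highest of that group had 4.32 CPM. Fkbp8 stood at 133 CPM in wild-type replicate 2, where the next had 106.5 CPM. Bcl2l13 stood at 57.8 CPM in Atg5-deficient replicate 5, where the next had 45.2 CPM. The 3 values lie in 3 different libraries.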

How the results depend on the processing

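None of the 8 genes passed in any of 19 other fits, and the lowest adjusted p in those fits was 0.0877 (Fkbp8). Signs near 0 were not stable. With upper-quartile factors, log2 fold changes turned to -0.0030 for Bnip3l, -0.034 for Pink1 and -0.030 for Bcl2l13, and only 4 of 8 stayed positive; those factors moved the median of all genes by -0.07. Pink1 turned to -0.0098 without Atg5-deficient replicate 1 and -0.035 without wild-type replicate 3 (highest 0.094 over the libraries left out), and Bcl2l13 to -0.036 without Atg5-deficient replicate 5 (highest 0.073). Over all genes, 1231 were called (797 higher, 434 lower). DESeq2 called 2385 (1404 and 981), limma-voom 3426 (1966 and 1460), and the 8 libraries with adjoining title numbers alone 176 (87 and 89), where fewer samples entered. Upper-quartile factors gave 584 higher and 685 lower. Leaving out 1 library gave 642 to 2143 calls (402 to 1410 higher, 191 to 733 lower), the most without Atg5-deficient replicate 3. The cause of these shifts was not tested. No paired analysis was possible because the labels give no replicate numbers shared by the groups. Of the 8 genes, Bnip3 had the fewest reads. Its log2 fold change ran from 0.13 (without Atg5-deficient replicate 3) to 0.64 (without wild-type replicate 3).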

Other observations

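Mitochondrially encoded mRNAs, a rough measure of the organelle's own output, were counted for 13 genes, of which 12 were tested and 0 passed with edgeR (4 at an unadjusted p under 0.05, 0 called by limma-voom and 1 lower by DESeq2). Of all genes, edgeR called 6.84%, limma-voom 19% and DESeq2 13.2%, and 23.4% had an unadjusted p under 0.05 with edgeR. The median log2 fold change of the 12 was -0.22, with 10 of 12 negative. Both include genes counted at under 1 CPM, which are named below. The more abundant ones included mt-Co1 (1789 against 1898 CPM, log2 fold change -0.09), mt-Nd5 (719 against 807 CPM, -0.17), mt-Cytb (702 against 782 CPM, -0.15) and mt-Nd2 (182 against 227 CPM, -0.32, adjusted p = 0.139). mt-Co2, mt-Co3, mt-Atp6 and mt-Nd4l were counted at under 1 CPM (0.210, 0.334, 0.272 and 0.540 CPM in Atg5-deficient libraries). Yet mt-Co1, of the same enzyme as mt-Co2 and mt-Co3, is among the most counted of the list. Those low genes include the largest negative values of the list (-1.65 and -1.53) and a positive one (mt-Nd4l, 0.20). Their values therefore describe only a small residue of reads. Why they are so low was not tested.

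Low counts were more often even than odd. In 11 of 11 libraries more genes had 2 counts than 1, and among genes with 1 to 12 counts 57% to 65.8% had an even number. Whether counts stand for independent fragments was not tested. Each of the 8 genes had at least 87 counts in every library. That lies above the range searched, so whether their counts share this pattern was not tested.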
